A study of Mus musculus with 6 samples.

Results

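The regions described here are 26091 peaks of the wild-type library Control 1 that share at least 1 bp with a peak of the knockout library Bmal1 CKO 2, touch no peak of the 4 other libraries, and have their summit inside a protein-coding gene and more than 1 kb from every protein-coding gene end. They make up 14.5% of the 179475 peaks of Control 1, and the 6 lists hold 320474 peaks in all. The libraries are BMAL1 ChIP-seq (sequencing of DNA recovered with an antibody, here a rabbit antibody against BMAL1) from retina, with 3 libraries labelled Bmal1 CKO, a conditional knockout of Bmal1, and 3 wild-type libraries labelled Control. All are C57BL/6, none received an external treatment, and the growth note says only that weaning took place at P20. The labels do not say which retinal cells lost Bmal1, how old the mice were, at what time of day tissue was taken, or whether a library is 1 animal or a pool, although the design text speaks of 3 mice of each genotype. The members were chosen from these peak calls, so their number and their presence in both lists are a description and carry no test.

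BMAL1 pairs with CLOCK, and the pair binds the DNA word CACGTG, called an E-box, to switch on clock genes such as the period genes, whose products later repress the pair. Binding inside genes is known for many transcription factors, at enhancers in introns and at alternative promoters from which a shorter transcript of the same gene starts. Retinal neurons express many very long genes, among them cell adhesion and synapse genes and several genes mutated in inherited blindness, and a long gene offers more room for any peak.

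The members nearest to transcription can be shown with their sequence, because RefSeq promoter windows (GRCm38.p6, the build called mm10) cover start sites that lie inside gene bodies. The 7 windows below run from 250 bases before to 50 bases after such a start and hold a member's Control 1 summit. In Per1 and Robo2 the Bmal1 CKO 2 summit lies outside the window. The first 3 belong to genes of the lists described further on, the next pair held the highest Control 1 folds at a protein-coding internal start, and the last pair held the highest among windows with an E-box. Per1 (chr11:69098699-69098998, plus strand) encodes a period repressor. Pcdh15 (chr10:73821617-73821916, plus strand) encodes a protocadherin of hair cells and photoreceptors. Robo2 (chr16:74411776-74412075, minus strand) encodes an axon guidance receptor. Ercc6l2 (chr13:63814990-63815289, plus strand) encodes a DNA repair helicase, and Abhd18 (chr3:40894009-40894308, plus strand) is named for an abhydrolase domain. Rabgap1 (chr2:37452004-37452303, plus strand) encodes a GTPase activator of Rab proteins, and Wdr17 (chr8:54724319-54724618, minus strand) is named for its WD repeats. Each sequence is given 5′ to 3′ along its own strand, and capitals mark CACGTG.
Per1: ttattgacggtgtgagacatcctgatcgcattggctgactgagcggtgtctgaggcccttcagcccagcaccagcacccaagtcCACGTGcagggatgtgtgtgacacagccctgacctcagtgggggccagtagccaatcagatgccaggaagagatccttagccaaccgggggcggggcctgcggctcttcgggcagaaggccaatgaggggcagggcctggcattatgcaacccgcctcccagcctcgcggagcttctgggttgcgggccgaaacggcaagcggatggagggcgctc
Pcdh15: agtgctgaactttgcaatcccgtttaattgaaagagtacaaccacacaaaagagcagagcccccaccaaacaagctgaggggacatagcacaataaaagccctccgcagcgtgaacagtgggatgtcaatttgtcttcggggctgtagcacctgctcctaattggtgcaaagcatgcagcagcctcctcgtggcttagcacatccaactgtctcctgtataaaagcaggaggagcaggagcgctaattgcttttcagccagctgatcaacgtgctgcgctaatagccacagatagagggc
Robo2: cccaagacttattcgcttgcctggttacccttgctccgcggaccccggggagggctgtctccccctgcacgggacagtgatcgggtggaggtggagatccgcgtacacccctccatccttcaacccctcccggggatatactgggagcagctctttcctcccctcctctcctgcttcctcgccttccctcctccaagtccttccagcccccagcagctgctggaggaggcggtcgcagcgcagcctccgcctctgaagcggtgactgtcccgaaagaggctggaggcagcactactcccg
Ercc6l2: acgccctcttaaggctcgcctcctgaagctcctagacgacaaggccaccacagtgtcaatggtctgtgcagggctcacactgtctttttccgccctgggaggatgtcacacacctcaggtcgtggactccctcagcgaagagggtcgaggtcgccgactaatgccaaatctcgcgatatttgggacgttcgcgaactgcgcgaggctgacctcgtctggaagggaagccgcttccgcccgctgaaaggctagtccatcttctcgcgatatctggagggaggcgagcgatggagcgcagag
Abhd18: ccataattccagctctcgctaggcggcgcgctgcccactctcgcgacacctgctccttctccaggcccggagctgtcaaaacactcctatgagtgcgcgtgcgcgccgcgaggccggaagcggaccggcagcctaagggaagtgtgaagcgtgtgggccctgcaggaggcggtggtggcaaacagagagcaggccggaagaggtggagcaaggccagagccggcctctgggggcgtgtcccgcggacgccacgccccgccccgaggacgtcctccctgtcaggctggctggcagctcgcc
Rabgap1: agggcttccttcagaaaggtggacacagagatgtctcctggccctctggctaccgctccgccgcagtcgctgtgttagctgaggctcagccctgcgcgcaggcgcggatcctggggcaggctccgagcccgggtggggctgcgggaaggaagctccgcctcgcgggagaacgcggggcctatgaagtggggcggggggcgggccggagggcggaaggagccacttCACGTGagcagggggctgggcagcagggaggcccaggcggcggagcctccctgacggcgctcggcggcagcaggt
Wdr17: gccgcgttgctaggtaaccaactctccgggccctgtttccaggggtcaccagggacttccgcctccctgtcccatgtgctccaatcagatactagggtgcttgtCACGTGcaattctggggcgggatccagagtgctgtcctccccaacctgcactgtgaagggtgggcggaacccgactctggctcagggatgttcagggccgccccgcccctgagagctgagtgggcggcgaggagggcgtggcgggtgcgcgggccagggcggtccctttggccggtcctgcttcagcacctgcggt

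Among these windows, Per1, Rabgap1 and Wdr17 hold the E-box once. Its first base lies 166 bases before the start in Per1, 25 in Rabgap1 and 146 in Wdr17. The motif CACGTG reads the same on both strands and was the only one searched. It is in 7.15% of all 32851 promoter windows of the table, so a match describes the letters and is not a binding site by itself. At Per1 the E-box lay 274 bp from the Bmal1 CKO 2 summit and 124 bp from the Control 1 summit. The fold there, which is the authors' ratio of summit signal to local background within a library, was 2.16 in Bmal1 CKO 2 and 2.37 in Control 1. Both values are below the median of the members. They rest on 41 stacked fragments over a background of 18.5 in Bmal1 CKO 2 and on 38 over 15.5 in Control 1, as recovered from the deposited fold and p-value.

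The lists held 1444, 138254 and 519 peaks in Bmal1 CKO 1, 2 and 3, against 179475, 410 and 372 peaks in Control 1, 2 and 3. The list of Bmal1 CKO 2 overlapped 73130 peaks of Control 1, of which 1246 were dropped because another list also had a peak there. Of the 71884 that remained, 26091 (36.3%) lay inside gene bodies, 12029 (16.7%) lay within 1 kb of a gene end and 33764 (47.0%) lay outside genes. Each long list is 1 library, so nothing said of the members has a replicate check within a genotype. Within Arntl, the gene of BMAL1, the knockout lists 1, 2 and 3 had 0, 11 and 0 gene body peaks, against 14, 0 and 0 in Control 1, 2 and 3, and 5 of these places are members. A peak list does not show whether the gene was lost, so it cannot check the genotype labels, and it holds no expression by which the tissue label could be checked.

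Across all 6 libraries the share of peaks inside gene bodies, over every peak of a list and not the members alone, was 26.7%, 39.1% and 29.5% in Bmal1 CKO 1, 2 and 3, against 41.5%, 25.9% and 27.2% in Control 1, 2 and 3. The highest knockout share and the highest wild-type share both belonged to the long lists, and the groups overlapped. The means were 31.7% ± 6.52 in Bmal1 CKO and 31.5% ± 8.71 in Control (SD, n = 3 each). The difference of 0.231 percentage points was far smaller than the spread between libraries (exact two-sided permutation p = 1, smallest possible 0.10). It turned to −3.44 without Bmal1 CKO 2, to −2.60 without Control 2 and to −1.95 without Control 3, and came to 5.24 without Control 1, so single libraries set its sign.

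Members in general were close to all peaks of the 2 long lists in fold, q-value and width, and slightly above them. Their median fold was 2.99 in Bmal1 CKO 2 (middle 50% of members 2.66 to 3.37) and 3.75 in Control 1 (3.24 to 4.37), where all peaks of those lists had medians of 2.96 and 3.54. The median −log10 q-value was 3.97 in Bmal1 CKO 2 and 5.02 in Control 1, against 3.87 and 4.42 for all peaks of those lists. The median width was 286 bp in Bmal1 CKO 2 and 304 bp in Control 1, against 262 bp and 269 bp. A median member stood on 25 fragments over a background of 7.20 in Bmal1 CKO 2 and on 20 over 4.18 in Control 1. The fold was lower in Bmal1 CKO 2 for 87.6% of members. The same held for 92.7% of shared peaks at gene ends and 86.6% of those outside genes, so it is not particular to members. The background was higher in Bmal1 CKO 2, and its part in this was not tested. With 1 library per genotype there is no test.

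Summits of the 2 libraries had a median gap of 68 bp, and 64.3% of members had them within 100 bp. The rule asks for overlapping peaks, so near summits are partly built in. Shared peaks outside genes had a median gap of 62 bp and 66.8% within 100 bp. Those at gene ends had 111 bp and 46.9%. Shared peaks at gene ends were wider, with medians of 473 bp in Bmal1 CKO 2 and 600 bp in Control 1, and had median folds of 3.06 and 4.08. Shared peaks outside genes resembled the members in width, with 288 bp and 305 bp, and had median folds of 3.12 and 3.88. A median member lay 23.4 kb from the nearest gene end, and the farthest 1120 kb. At the 1 kb limit, members in Lrp4 and Fndc11 sat 1 bp beyond it, with folds of 2.15 and 2.37 in Bmal1 CKO 2 and 2.44 and 2.91 in Control 1. Just outside the choice, shared peaks in Pla2g12b and Vmn2r91 sat at 1 kb itself, with folds of 2.42 and 2.93 in Bmal1 CKO 2 and 2.91 and 6.28 in Control 1.

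The highest fold of any member in both lists was in the gene model Gm40892 on chromosome 12, where Bmal1 CKO 2 had 9.64 from 69 fragments and Control 1 had 11.2 from 61. Others among the highest by the Control 1 value lay in Skint11, Pramel48 and Pramel33. Their folds were 5.56, 7.26 and 7.03 in Bmal1 CKO 2 and 10.5, 10.3 and 10.1 in Control 1. By the Bmal1 CKO 2 value, Gm40892 was followed by Pramel38 (8.95 in Bmal1 CKO 2 and 8.97 in Control 1), Gm40365 (8.60 and 3.62), Gm21119 (8.07 and 8.97) and Zranb3 (7.80 and 9.20), a gene of replication fork repair. No photoreceptor, synapse or clock gene of the lists is among these members. Genes of the Pramel and Skint families have close copies in the genome, and how reads with several matches were treated is not given in the sources used here, so counts and folds in such families are uncertain.

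Gene bodies more than 1 kb from gene ends cover 988 Mb, which gives 2.64 members per 100 kb, or 1 per 37.9 kb. On autosomes this density was 1.21 times that of shared peaks outside genes. Of 21900 protein-coding genes, 8477 (38.7%) held a member, as did 44% of the 19256 genes that have any base so far from an end. Among the genes with a member, 3711 had 1, 1599 had at least 5 and 89 had at least 20.

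Gene length went with the number of members across genes (Spearman 0.665, Pearson 0.755, n = 19256 genes, which share libraries and neighbouring positions). Of genes with less than 5 kb of interior 9.19% held a member, of those with 20 to 50 kb 52.8%, of those with 100 to 200 kb 92.1% and of those above 500 kb 98.7%. Per unit of length the picture differed. The density was 2.65 to 2.97 per 100 kb in the classes between 5 kb and 500 kb, 4.42 in the genes below 5 kb and 1.83 in the 225 genes above 500 kb. The class of the longest genes thus had the lowest density and the highest share of genes with a member. On autosomes alone the value above 500 kb was 1.92.

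**Figure D1:**
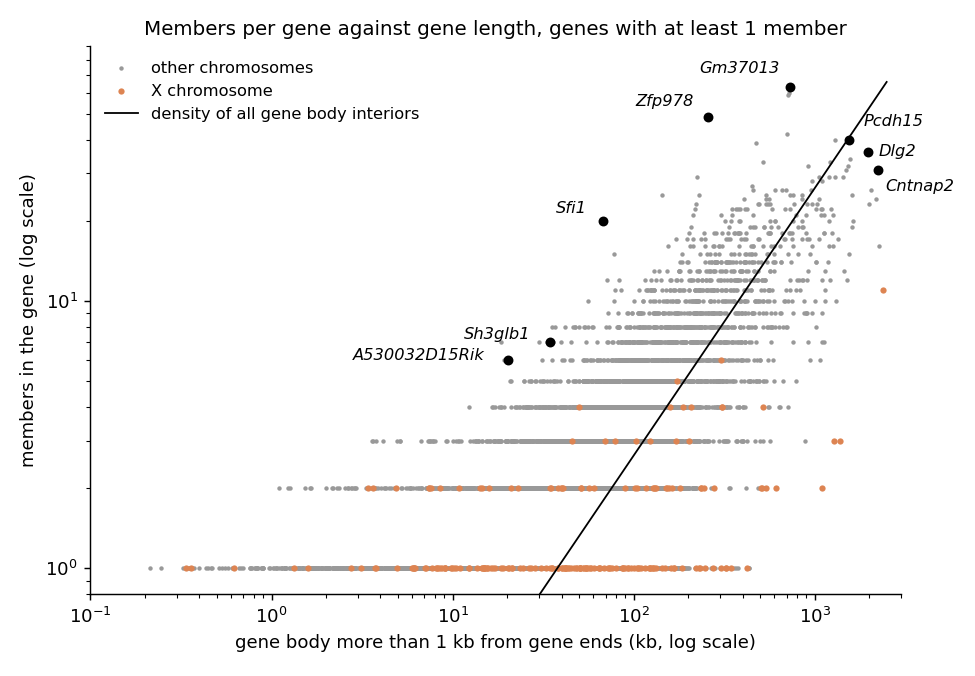
Members in each gene (log scale) against the length of its body more than 1 kb from gene ends (kb, log scale). Each point is 1 of the 8477 genes with a member, orange points are on the X chromosome, black points are named genes, and the line is the density of all gene bodies. Zfp978 (49 members) lies above the line, and Dlg2 (36) and Cntnap2 (31) lie below it. Genes with no member are not shown.

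Of the 1599 genes with at least 5 members, 518 (32.4%) had at least 2 times the number their length gives at the density of all gene bodies, and 66 (4.13%) fell short of it by at least the same factor. Genes with fewer than 5 members cannot enter this count however long they are, so nothing is read from the balance of the 2 numbers. Among the 978 genes with at least 200 kb of interior, the median density was 2.35 per 100 kb and the range 0 to 19.1. Of 1043 genes whose length gives at least 5 members, 27 had none, 19 of them among the 47 on the X chromosome and 8 among the 996 on autosomes.

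The genes with the most members were of 2 kinds, gene clusters with many similar copies and very long single genes. Gm37013, Gm38666 and Gm38667 led with 63, 60 and 59 members. They are overlapping models that span the clustered protocadherin locus on chromosome 18 (36952648 to 37841873 for Gm37013), so these are largely the same peaks, and Gm37013 has 0 where bases in more than 1 gene are left out. Zfp978 and Zfp993, zinc finger protein genes of 1 cluster on chromosome 4, had 49 and 39 members, or 19.1 and 8.25 per 100 kb. The short lists were not empty there. Zfp978 had 14, 79 and 3 gene body peaks in Bmal1 CKO 1, 2 and 3, against 68, 0 and 1 in Control 1, 2 and 3, and Zfp993 had 23, 85 and 2, against 63, 2 and 1.

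Long single genes with many members had densities near or below that of all gene bodies. Pcdh15 (chromosome 10, 73096277 to 74649831) had 40 members, with 1, 110 and 0 gene body peaks in Bmal1 CKO 1, 2 and 3, against 74, 0 and 0 in Control 1, 2 and 3. Its density was 2.58 per 100 kb. Tenm3, which encodes a teneurin that guides retinal wiring (chromosome 8, 48225665 to 49522824), also had 40, at 3.09 per 100 kb, with 83 gene body peaks in Bmal1 CKO 2 and 96 in Control 1. Dlg2, a scaffold gene of the postsynapse, had 36 members at 1.83 per 100 kb, from 85 peaks in Bmal1 CKO 2 and 62 in Control 1. Ctnna3, which encodes an alpha-catenin, had 34 at 2.17 per 100 kb, from 71 and 78. Against the density of all gene bodies, these 4 genes are on the list of most members by length more than by density. At the density of their own length class, Pcdh15, Tenm3, Dlg2 and Ctnna3 would hold 29.8, 24.9, 37.9 and 30.1 members. Dlg2 was below that number and the others were above it. With the −log10 q-value held to 5 or more in both lists, 7 of the Pcdh15 members, 6 of Tenm3, 9 of Dlg2 and 8 of Ctnna3 were left.

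Along these genes the members were spread rather than gathered at one place. In Pcdh15 the first lay 10.6 kb and the last 1550 kb from the lower-coordinate end, the median gap between neighbours was 19.4 kb, and the lower, middle and upper parts of equal length held 9, 13 and 18. The longest stretch without a member was 162 kb. In Tenm3 the parts held 20, 14 and 6, and a stretch of 242 kb, from 998 kb to 1240 kb, held none. The counts in Tenm3 were thus the more uneven. Folds of the members ran from 2.49 to 5.42 in Bmal1 CKO 2 (median 3.22) and from 3.14 to 7.17 in Control 1 (median 4.15) in Pcdh15. In Tenm3 they ran from 2.56 to 4.25 (median 3.06) in Bmal1 CKO 2 and from 2.93 to 6.52 (median 3.90) in Control 1. Both genes had medians somewhat above those of all members, on fewer fragments and a lower background. In Bmal1 CKO 2 the medians were 21.5 fragments over 5.83 in Pcdh15 and 24 over 6.85 in Tenm3, against 25 over 7.20. In Control 1 they were 17.5 over 3.46 and 18.5 over 3.71, against 20 over 4.18. The part of the background in these folds was not tested.

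**Figure D2:**
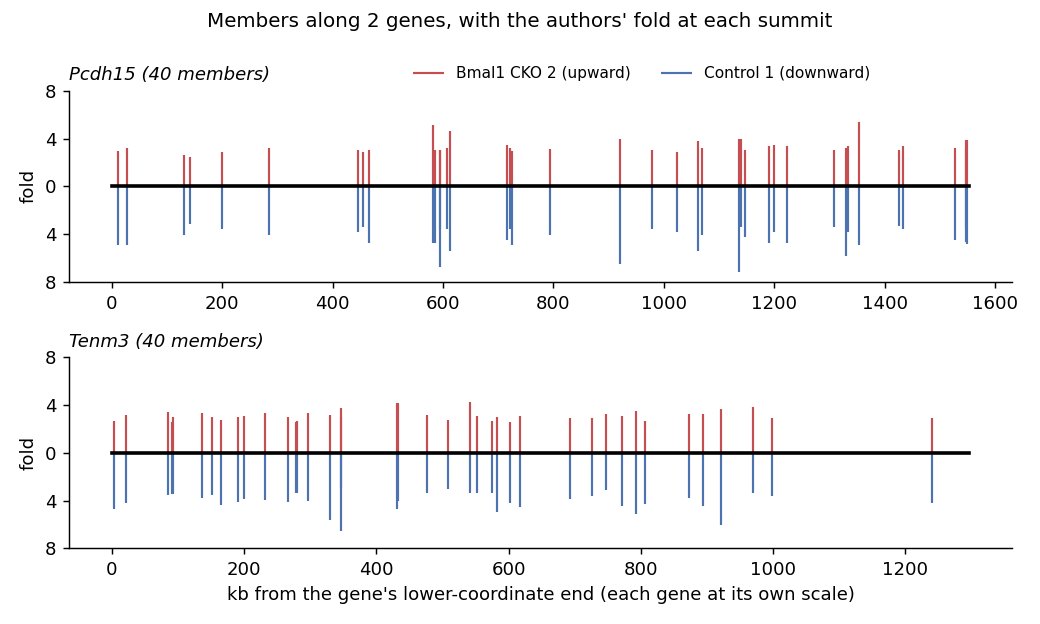
Members along Pcdh15 and Tenm3, placed in kb from the lower-coordinate end of each gene. Each line is 1 member, and its height is the authors' fold in Bmal1 CKO 2 (red, upward) and in Control 1 (blue, downward). Members run through Pcdh15 from end to end, and Tenm3 has a single member past 998 kb.

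Per unit of length the leading genes were short and often in families. Of genes with at least 5 members and 20 kb of interior, A530032D15Rik (29.8 per 100 kb), Sfi1 (29.5), Tcp10c (24.2), 2410141K09Rik (23.8), 9530057J20Rik (23.4), Pramel47 (22.4), Gm42346 (21.6), Zfp981 (21.0), the major urinary protein gene Mup5 (20.2) and Sh3glb1 (20.1) came first. This order depends on which short lists exclude a peak, since without Bmal1 CKO 1 the members of 9530057J20Rik number 11 in place of 7 and those of A530032D15Rik 9 in place of 6. Sfi1, which encodes a centrin-binding protein of the centrosome, had 20 members over a median background of 147 fragments in Bmal1 CKO 2 and 106 in Control 1, against 7.20 and 4.18 for all members. Its median folds were low, at 1.66 in Bmal1 CKO 2 and 1.96 in Control 1. It also had 9, 36 and 8 gene body peaks in Bmal1 CKO 1, 2 and 3, against 34, 3 and 3 in Control 1, 2 and 3. Sh3glb1, which encodes endophilin B1, had 7 members and no peak in any short list.

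Of the 1597 genes with at least 5 members and 20 kb of interior, 85 had at least 10 members per 100 kb. Genes below either limit were not counted here, whatever their density. Of the 85, 35 lay in 9 blocks of 2 or more such genes. The fullest block held 163 members in 8 genes on chromosome 4 (145412232 to 147812229), among them Zfp978, Zfp981 and Rex2. Another held 91 in 7 genes on chromosome 17 (6256726 to 7397322), and one on chromosome 1 (85088139 to 85645040) held 71 in 6 genes, among them Sp110 and Sp140. The 85 genes together held 678 members, or 2.60% of all. Their members had a higher local background, with medians of 8.66 in Bmal1 CKO 2 and 5.22 in Control 1, against 7.16 and 4.16 for all other members, and the part of this in the counts was not tested.

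At the other end, several long genes had no member, and the first 5 of them in genome order are given. Gli2, a transcription factor of hedgehog signalling, has 218 kb of interior with 2 peaks in Bmal1 CKO 2 and 13 in Control 1, none of them a member. Kcnd2, which encodes a potassium channel, has 512 kb with 9 and 9. Cmip had 3 and 10, Gse1 had 4 and 15, and Chst11, a sulfotransferase gene, had 1 and 7. The sidekick adhesion gene Sdk2, of the adhesion list, also had none, with 5 and 31. Absence here means that the calls did not meet, not that the lists were empty. At their length the first 5 would hold 5.34 to 13.5 members each.

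The X chromosome carried few members. Its gene bodies held 300, or 0.686 per 100 kb, against 2.74 on autosomes, a difference of 3.99 times, with autosomes ranging from 2.38 on chromosome 6 to 3.27 on chromosome 18. A member was found in 24.4% of X chromosome genes with interior and in 45.2% of autosomal ones. The X chromosome has 4.43% of the gene body bases and 1.15% of the members. The shortfall was in each long list before they were intersected. Autosomal over X chromosome density of all gene body peaks was 3.96 in Bmal1 CKO 2 and 3.72 in Control 1, and for shared peaks outside genes it was 2.85. In the short lists, 11 of 385 and 4 of 153 gene body peaks lay on X in Bmal1 CKO 1 and 3, against 4 of 106 and 4 of 101 in Control 2 and 3. Members on X sat on a lower background, with medians of 5.83 in Bmal1 CKO 2 and 3.46 in Control 1, against 7.22 and 4.18 on autosomes. The part of the background in the shortfall was not tested.

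**Figure D3:**
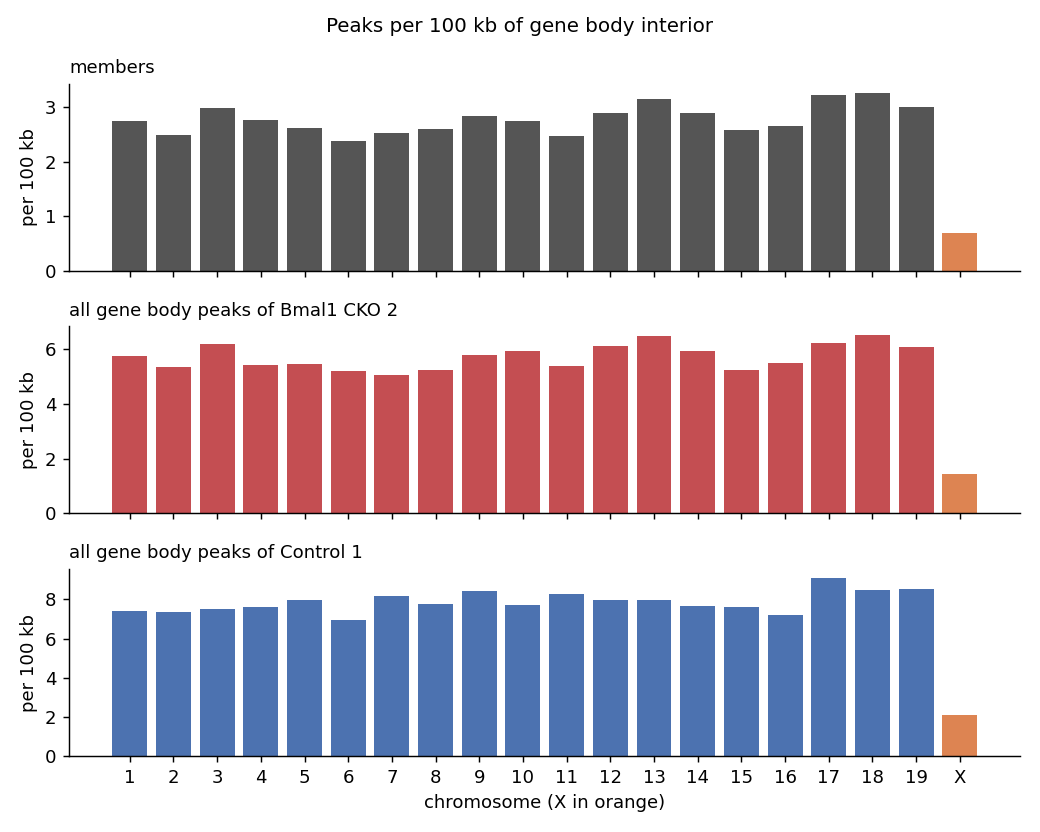
Peaks per 100 kb of gene body more than 1 kb from gene ends, by chromosome, for the members (top), all gene body peaks of Bmal1 CKO 2 (middle) and all those of Control 1 (bottom). Autosomal bars for the members lie between 2.38 and 3.27, and the orange X chromosome bar is at 0.686.

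Retinal genes as a group were near the density of other genes, with the large retinal disease genes above it. Each list is described by its members and by the number that all genes of the same length class would hold, and all measured genes had a median density of 0 per 100 kb because most have no member. The 20 large disease genes held 204 members, where their lengths give 134, at 3.46 per 100 kb and with a median gene at 2.48. Pcdh15 supplied 40 of them. The G protein-coupled receptor gene Adgrv1, of Usher syndrome, had 25 (4.66 per 100 kb), Vps13b of Cohen syndrome had 24 (4.30) and Bbs9, a subunit of the BBSome that carries cargo to cilia, had 22 (5.36). Lower in the list, the disc membrane gene Prom1 had 7, the ciliary gene Alms1 7 and the polarity gene Crb1 8, whereas Cdh23 had 4 in 384 kb (1.04 per 100 kb). Cacna1f, Nphp4 and Ush1c had none.

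Of 20 rod genes, 11 held a member (57.9% of those with interior, beside 44% of all genes), with 30 members in all where their lengths give 23.6. Rp1, which encodes a microtubule protein of the outer segment, had 12, and Abca4, which encodes the retinoid flippase of the disc membrane, had 6. The phosphodiesterase gene Pde6a had 3 and the channel gene Cngb1 had 2. No rod gene had a gene body peak in any short list. The same held for the bipolar cell, muscle, liver and pigment epithelium lists, so it is not particular to rod genes. The short lists hold few gene body peaks, 385 and 153 in Bmal1 CKO 1 and 3 and 106 and 101 in Control 2 and 3. Of 16 cone genes, 8 held 26 members where their lengths give 26.3. Thrb, the thyroid hormone receptor gene needed for the M opsin, had 12 (3.19 per 100 kb), from 23 peaks in Bmal1 CKO 2 and 31 in Control 1. The channel gene Cngb3 had 6, and Sall3 and the phosphodiesterase gene Pde6c had 2 each. Cone genes were thus at the number their length gives and rod genes above it, with no test of either. The 95% Poisson intervals of the densities, for counting error only, overlapped widely. They were 2.47 to 5.24 per 100 kb for rod genes and 1.83 to 4.11 for cone genes. Both intervals include the density of all gene bodies (2.64) and that of genes of the same lengths.

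Amacrine and horizontal cell genes held 23 members in 8 of 15 genes, where length gives 18.0, led by the transcription factor genes Meis2 (8) and Prox1 (4). The interval of their density was likewise wide (2.35 to 5.57 per 100 kb). Bipolar cell genes held 27, where length gives 31.2, led by Prkca (10), Grik1 (9) and the channel gene Trpm1 (4). Ganglion cell genes held 21 against 22.6, led by Ebf1 (8), Rbpms (4) and Ebf3 (3). These 2 lists were a little below the number their length gives. Müller glia genes held 8 against 7.98, with Gpr37 and the glutamate transporter gene Slc1a3 at 2 each.

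Neuronal genes held the most members and yet fewer than their length gives. The 36 adhesion and guidance genes held 535, where genes of their length classes give 728, at 1.39 per 100 kb (median gene 1.24). Cntnap2, with 31 members in 2239 kb, Ntm with 28 and Lrp1b with 26 followed Tenm3. Transmitter receptor genes held 152 where length gives 262, at 1.35 per 100 kb (median gene 1.25), among them the delta glutamate receptor gene Grid1 (16) and the metabotropic receptor gene Grm8 (12). Channel genes held 179 against 242, led by Cacna2d3 (19), and by Cacnb2, Ryr2 and Kcnma1 with 15 each. Scaffold genes of the synapse held 225 against 238, where Rims2, which encodes a protein of the release site, had 23 at 4.75 per 100 kb, Magi2 had 31 at 2.09 and Nrxn3 had 19 at 1.18. At least 1 member was found in 35 of 36 adhesion, 26 of 28 receptor, 22 of 23 channel and 22 of 23 scaffold genes, beside 97.2% of all genes with 200 to 500 kb of interior and 98.7% of those above 500 kb, so such counts are near those of any genes this long.

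Genes with other roles lay on both sides of the number their length gives. The 20 muscle genes held 71 members where length gives 71.8, with Ttn, the gene of titin, at 10 and Sgcd at 14. The 20 immune cell genes held 52 against 68.9, led by Skap1 and Dock8 with 8 each. Liver genes held 11 against 20.7, pigment epithelium genes 8 against 15.6, microglia and vessel genes 12 against 18.5, and 20 genes used in nearly all cells 11 against 8.27. Muscle genes were thus as near to their length as cone genes were. The 20 clock genes held 48 members in 13 genes, where length gives 41.8, led by the receptor gene Rora (18), Clock (7, at 7.47 per 100 kb), Arntl (5) and the receptor gene Rorb (5). Of the period genes, Per1 and Per3 had 1 each and Per2 none.

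**Figure D4:**
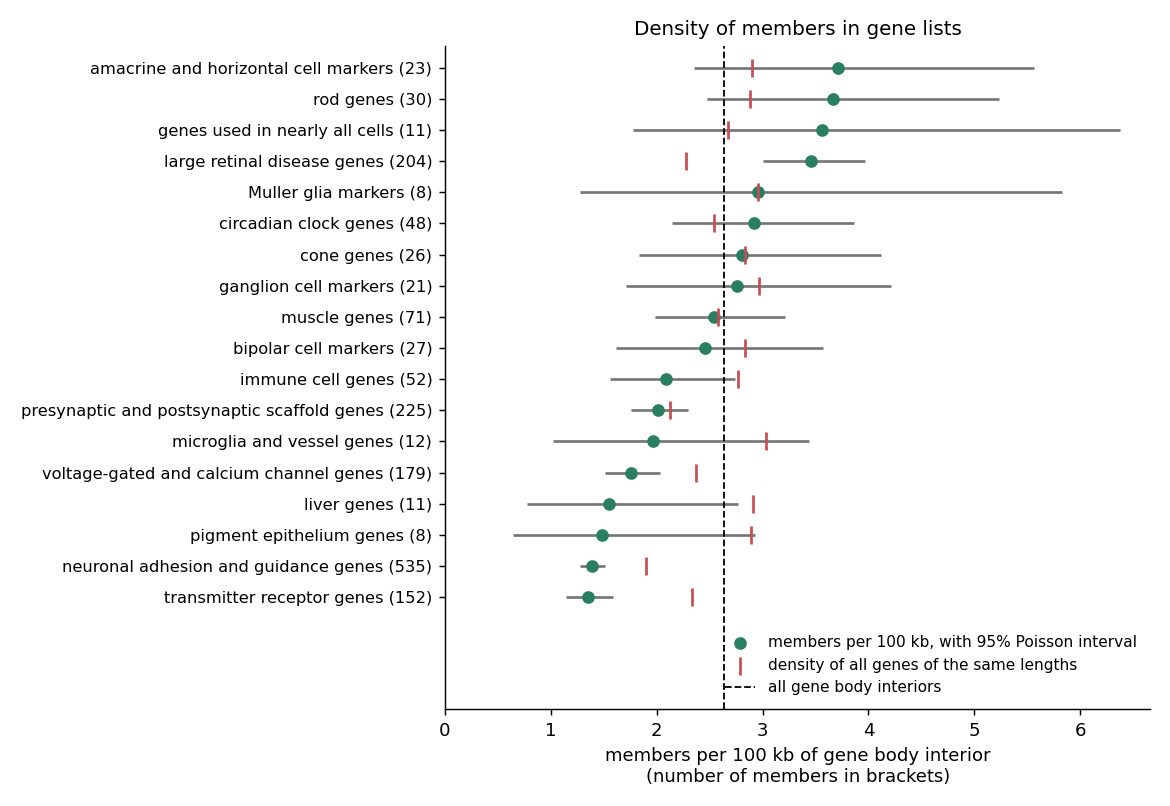
Members per 100 kb of gene body more than 1 kb from gene ends, for 18 gene lists with the number of members in brackets. Points are the list's density, bars its 95% Poisson interval (counting error only), red ticks the density of all genes of the same lengths, and the dashed line that of all gene bodies. The large retinal disease genes (3.46) lie above their tick, and the transmitter receptor genes (1.35) and adhesion genes (1.39) below theirs.

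Members met start sites inside genes more often than their density gives. The RefSeq windows hold 3881 starts of protein-coding genes that lie inside a gene body more than 1 kb from every gene end, and so are alternative starts, and 2790 starts of long non-coding RNAs (lncRNAs) there. A member's Control 1 summit fell in the window of 503 protein-coding starts (13%) and of 126 lncRNA starts (4.52%), where uniform placement in gene bodies gives 0.792%. These are 16.4 and 5.70 times that value. With the Bmal1 CKO 2 summit the numbers were 511 (13.2%) and 101 (3.62%). Members at these starts number 563, or 2.16% of all, so most members lie elsewhere. Windows for chromosome 18 were not used here.

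Around protein-coding starts the members piled up close to the start. In the 100 bp after the start there were 58.7 summits per 1000 starts in Bmal1 CKO 2 and 63.4 in Control 1, against averages of 2.56 and 2.64 per 100 bp at 1 to 2 kb from the start on either side. Around lncRNA starts the highest bins held 14.7 in Bmal1 CKO 2 and 17.6 in Control 1, against 2.78 and 2.76. Members at internal starts were wider than others, with medians of 434 bp in Bmal1 CKO 2 and 548 bp in Control 1, against 284 bp and 302 bp. They had median folds of 2.98 and 4.01, against 2.99 and 3.75 for the other members. In width they were closer to the shared peaks at gene ends than to the other members.

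**Figure D5:**
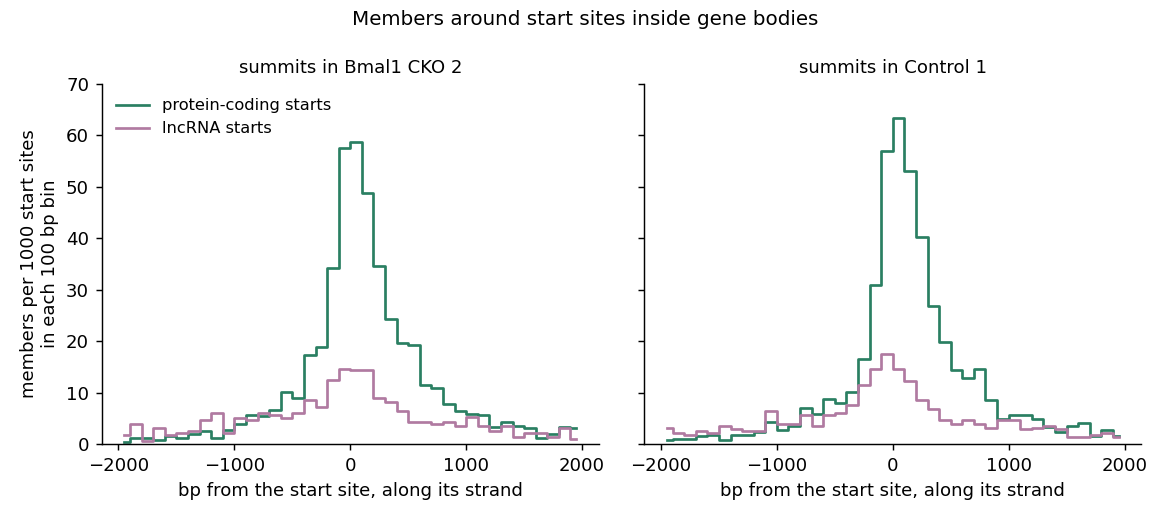
Member summits per 1000 start sites in bins of 100 bp, from 2 kb before to 2 kb after starts inside gene bodies, with summits of Bmal1 CKO 2 (left) and Control 1 (right). Green lines are protein-coding starts and purple lines lncRNA starts. The green line reaches 58.7 in Bmal1 CKO 2 and 63.4 in Control 1 just after the start.

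The windows that held a member were richer in CpG. Protein-coding internal windows with a member had a median of 21 CpG and 63% G or C, against 7 and 53.3% in those without. The E-box was in 47 of 503 windows with a member (9.34%) and in 197 of 3378 without (5.83%), beside 7.15% of all windows. CACGTG itself contains a CpG, and the part of base composition in this difference was not tested. In the 1866 genes with known strand and at least 100 kb, members were also denser 1 to 2 kb inside the start (12.1 per 100 kb) than 1 to 2 kb inside the end (4.60). From 2 to 5 kb the values were 2.85 on the start side and 3.45 on the end side, and from 5 kb to 200 kb they ran from 2.18 to 2.89 on either side. The 1 kb limit of the choice thus leaves some peaks near the gene's outermost annotated start among the members. Whether they sit at alternative starts was not tested.

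Of 114 protein-coding internal starts that belong to genes on the lists, 8 (7.02%) held a member, a lower share than the 13% of all protein-coding internal starts. They belong to the glutamate receptor gene Gria2, the channel-interacting protein gene Kcnip4, the adhesion genes Cntn4 and Robo2, Pcdh15, Per1, and Pcdh9 with 2 starts under 1 member. At Robo2 the folds were 4.58 in Bmal1 CKO 2 and 5.52 in Control 1, at Gria2 3.19 and 4.91, and at Pcdh15 2.93 and 4.94. The Pcdh15 start lies 726 kb from the nearer gene end, and both summits lay within 19 bp of it. Among the strongest at internal starts were Ercc6l2 (5.42 in Bmal1 CKO 2 and 8.97 in Control 1), Abhd18 (4.67 and 8.73), Rabgap1 (3.42 and 7.71) and Wdr17 (6.73 and 7.40), whose windows are printed above. None of these 4 is in the retinal, neuronal or clock lists.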

How the data were processed

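The authors deposited 1 peak list per library. Per the submitters' processing notes they used Trim Galore, Bowtie2 and MACS2 on build mm10. Versions, settings and use of an input were not given in the sources used here. Each deposited peak has a score (10 times the −log10 q-value, rounded down), a fold (a ratio over local background), −log10 p and q-values and a summit position, all relative to the peak's own library. Peaks were called per library, so p-values and q-values cannot be pooled.

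Each list belongs to the library that the series record gives, and libraries were grouped by title. Overlaps, distances and densities were computed in Python 3.11.15 with numpy 2.4.6, scipy 1.17.1 and pandas 2.3.3, and figures with matplotlib 3.10.9. Gene positions came from a RefSeq table of GRCm38.p6 with 21900 protein-coding genes, and start windows and their sequences from a RefSeq promoter table of the same build, which matched 17492 of them. All genes of the lists were found. Fragments and background were solved from the deposited fold, with a pseudocount of 1, and the deposited Poisson p-value, which assumes that the peak caller worked so. All members gave a solution, and the scripts were tested on simulated data. The lists hold no read totals, so depth per library is known only through this background, whose commonest value was 5.83 fragments in Bmal1 CKO 2 and 3.46 in Control 1. Intervals cover counting error only. The design text names 3 mice of each genotype but no label ties a library to an animal, so the p-value may measure technical spread.

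Members and gene lists were chosen with earlier results of these data known. Named genes are the 10 with most members, the 10 densest (at least 5 members and 20 kb), the 5 emptiest of at least 200 kb, up to 4 leading genes per list, the 5 members with the highest fold per long list, and the 2 shared peaks nearest each side of the 1 kb limit. Other genes were named after their values were seen, as were the X chromosome and internal start comparisons. The values of some single genes are not reported here. No test was made on the members. Gene body shares of the 6 libraries were compared by an exact permutation test over 20 assignments. Alternatives changed the overlap, the q-value limit, the distance from gene ends, the exclusion of other lists, the list taken first, overlapping genes and the libraries.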

Additional observations from a re-analysis of the deposited data

How the results depend on the processing

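A −log10 q-value of at least 5 in both long lists left 5338 members, 3392 genes with a member, 0.540 members per 100 kb, a Spearman correlation with length of 0.411, 94 genes at 2 times their length, an autosomal over X chromosome ratio of 3.13 and members at 6.57% of protein-coding internal starts. Overlap of at least 50% of the Control 1 peak gave 2.23 per 100 kb, 0.648, a ratio of 4.60 and 9.71%. A distance of more than 5 kb gave 2.54 per 100 kb, 0.699, a ratio of 5.39 and 11.7%. Keeping peaks of other lists gave 2.67 per 100 kb, and starting from Bmal1 CKO 2 gave 2.68. The cause was not tested. Under no alternative did the X chromosome reach the autosomal density. Of 930 values for 93 named genes, 809 stayed within 1.5 times. Of the lists, rod, cone, large disease and ubiquitous genes kept a density above that of all gene bodies, Müller glia, amacrine and horizontal, ganglion and clock genes changed side, and the other 10 stayed below. The difference in gene body share, Bmal1 CKO minus Control, ran from −3.44 to 5.24 when 1 library was left out and was −2.60 without Control 2 and −1.95 without Control 3. With the replicate number as a block it was 0.231 (exact sign-flip test over 3 pairs, p = 1), and nothing says that the numbers pair the samples. Without either long list it was 1.57 (exact permutation p = 0.667, 2 libraries each). The short lists have too few peaks to show whether members are absent there or below their depth.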
